A study of Homo sapiens with 9 samples.

Results

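The mucins and the enzymes that build and cap mucin-type O-glycans were examined in HCT116, a human colorectal cancer cell line. The set holds every protein-coding gene of the deposited table whose symbol belongs to the families GALNT, C1GALT1, C1GALT1C1, GCNT1 to GCNT4, B3GNT2 to B3GNT9, ST3GAL, ST6GALNAC, ST6GAL or MUC, which gave 58 of 31558 genes. Of these, 17 start the glycan, 6 build its cores, 8 extend it, 13 add sialic acid and 14 are mucins. All cells had received a plasmid. In CRLM1-OE cells it was a pTSB vector with the lncRNA CRLM1 (LINC01767), in Anti cells an antisense control plasmid, and in Ctrl cells an empty one. The methods describe lentiviral delivery of the CRLM1 vector for stable lines, but do not tie it to each of these groups. Each group had 3 biological replicates of 1 cell line, so that the replicates do not stand for different patients or lines. The study asked which genes CRLM1 changes, with Ctrl and Anti as separate controls.

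Mucin-type O-glycosylation takes place in the Golgi apparatus. A GALNT enzyme attaches N-acetylgalactosamine to serine or threonine of the protein. C1GALT1, with its chaperone C1GALT1C1, then adds galactose to form core 1, GCNT enzymes branch it to core 2, B3GNT enzymes lengthen the chains, and sialyltransferases end them. Mucins are the densely glycosylated proteins on and above epithelial surfaces, and the colon's goblet cells secrete gel-forming mucins.

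The labels were checked with the transgene. Reads on CRLM1 numbered 38704, 32751 and 35726 in CRLM1-OE, while each Ctrl sample had 0 and the Anti samples had 1951, 1777 and 1540. Total counts per sample ranged from 33302292 to 44514692. The epithelial label was checked with 9 markers, of which 6 reached a mean of 1 FPKM (fragments per exon length and sequencing depth). The 9 markers summed to 4850 to 4980 FPKM in CRLM1-OE, 5520 to 5560 in Ctrl and 4570 to 4630 in Anti. VIL1 (0.0133 to 0.02 FPKM in the group means) and CDX1 (0.01 to 0.0333) were near 0, and KRT20 was low (0.303 to 0.523). The defining goblet cell markers were near 0. Of 9 goblet markers, 4 were in the table, and their summed 62.6 to 66.3 FPKM came almost wholly from KLF4, while ATOH1 and SPDEF stayed at or below 0.14 FPKM in the group means. The goblet marker FCGBP was higher in CRLM1-OE (0.773 FPKM ± 0.0551, SD, n = 3) than in Ctrl (0.4 ± 0.05) and Anti (0.583 ± 0.0611), with log2 fold changes of 0.86 and 0.37. Among the epithelial markers, KRT18 (-1.0 in each comparison), KRT8 (-0.24 and -0.11) and EPCAM (-0.35 and -0.37) were lower against Ctrl and Anti, and KRT19, the most abundant, was lower against Ctrl (-0.17) and higher against Anti (0.38). CDH1 did not pass against Ctrl (-0.05, adjusted p = 0.21) and was lower against Anti (-0.11, edgeR adjusted p = 0.0001). KRT20 did not pass against Ctrl (-0.47, edgeR adjusted p = 0.25) and was lower against Anti (-0.8, edgeR adjusted p = 0.0095). CDX2 did not pass against Ctrl (-0.08, adjusted p = 0.51) or Anti (-0.08, edgeR adjusted p = 0.46). Summed markers of enterocytes (0 to 0.11 FPKM), enteroendocrine cells (0.17 to 0.47 FPKM) and endothelium (0.05 to 0.14 FPKM) were low. The 4 leukocyte markers in the table summed to 1.42 to 2.2 FPKM, mostly CD68, with PTPRC at 0 to 0.00333 in the group means. The 5 fibroblast markers summed to 2.07 to 2.5 FPKM in CRLM1-OE, 1.19 to 1.28 in Ctrl and 1.27 to 1.42 in Anti, almost wholly COL1A1. The part of these markers in the results below was not tested.

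Because GALNT1 fell while GALNT2 and GALNT12 rose, and MUC16 had the largest fitted change in both comparisons among members with a mean count of 10 or more, the bases before the RefSeq start of these 4 genes are shown (GRCh38.p14, 250 bases, 5' to 3' on the gene's strand). Capitals mark a GC box (GGGCGG) or an E-box (CACCTG) on either strand, and a capital run can hold overlapping motifs.
GALNT1: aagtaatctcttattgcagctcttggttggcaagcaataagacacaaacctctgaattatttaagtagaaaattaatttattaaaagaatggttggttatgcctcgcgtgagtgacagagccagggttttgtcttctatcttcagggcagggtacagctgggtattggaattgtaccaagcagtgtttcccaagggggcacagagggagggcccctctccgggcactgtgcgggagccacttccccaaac
GALNT2: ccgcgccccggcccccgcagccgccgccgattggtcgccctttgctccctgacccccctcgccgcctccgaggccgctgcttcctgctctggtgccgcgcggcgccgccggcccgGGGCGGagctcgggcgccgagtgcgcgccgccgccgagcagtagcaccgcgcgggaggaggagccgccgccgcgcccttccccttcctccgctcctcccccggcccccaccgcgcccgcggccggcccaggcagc
GALNT12: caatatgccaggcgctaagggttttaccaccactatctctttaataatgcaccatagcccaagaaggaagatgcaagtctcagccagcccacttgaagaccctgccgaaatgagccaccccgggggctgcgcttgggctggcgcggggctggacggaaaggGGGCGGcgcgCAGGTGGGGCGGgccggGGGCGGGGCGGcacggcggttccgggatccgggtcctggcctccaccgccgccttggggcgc
MUC16: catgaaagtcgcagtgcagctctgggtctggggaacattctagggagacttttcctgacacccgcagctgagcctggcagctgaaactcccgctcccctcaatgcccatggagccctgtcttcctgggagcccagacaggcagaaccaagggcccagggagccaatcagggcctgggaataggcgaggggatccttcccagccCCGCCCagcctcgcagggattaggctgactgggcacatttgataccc
The windows lie at chr18:35580672-35580921 (forward strand), chr1:230066988-230067237 (forward), chr9:98807420-98807669 (forward) and chr19:9065752-9066001 (reverse). RefSeq and GENCODE version 44 place the start differently for GALNT1, GALNT2 and MUC16. The GALNT1 window ends at 35580921, upstream of the GENCODE start at 35581117, and does not reach it. The GALNT2 window, from 230066988, lies inside the GENCODE gene, which starts at 230057990. That of MUC16, from 9065752, lies far upstream of the GENCODE gene end at 9010390. Which start these cells use was not tested. The GALNT1 window held none of the motifs and 47.2% G and C, against 82.8% for GALNT2 with 1 GC box, 67.2% for GALNT12 with 4 GC boxes and 1 E-box, and 61.6% for MUC16 with 1 GC box. Among 35116 RefSeq promoter windows of this length, 42.6% held a GC box, 17.5% this E-box and 6.57% an AP-1 motif (TGANTCA). Of the 40 members with such a window, 26 held a GC box, 7 the E-box and 3 the AP-1 motif. By direction, windows were at hand for 6 higher and 6 lower members that met the size rule for full values. A GC box was in 5 and 4 of these, the E-box in 3 and 1, and the AP-1 motif in 0 and 1. The lack of motifs in GALNT1 was thus not shared by most of the lower members. These are matches of letters, not shown sites.

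The level of the 58 members varied widely. In 44 the mean count over the 9 samples was at least 10, in 14 it was lower, and 11 had at most 4 counts in every sample. In Ctrl cells the highest levels were those of ST6GALNAC4 (27.0 FPKM), B3GNT3 (14.7), ST6GALNAC6 (13.8), ST3GAL4 (13.2), GALNT2 (10.2) and GALNT12 (9.92). The mucins were low. Their summed level was 3.07 FPKM ± 0.139 (SD, n = 3) in Ctrl, of which MUC3A made up 62.2% ± 2.65 (SD, n = 3), against 62.3 FPKM ± 1.03 (SD, n = 3) for the GALNT genes.

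Counts were tested by edgeR's quasi-likelihood test, with "higher" and "lower" meaning that p, adjusted by Benjamini-Hochberg over all genes tested, was 0.05 or less. Against Ctrl, 15 of 58 members were higher in CRLM1-OE, where 15% of all genes tested were, and 14 were lower (16.8% of all genes). At a fold change of at least 2, 4 members were called (3.41% of all genes), namely MUC16, MUC1, GALNT13 and GCNT4. The last 3 of these had at most 23 counts in any sample, and the count of 4 became 1 to 3 with any 1 library left out, 1 with DESeq2 and 0 with limma. Against Anti, 12 of 57 members tested were higher (17.1% of all genes), 15 were lower (18.5%) and 1 was called at 2-fold (5.65%). Between Anti and Ctrl, 8 of 55 members were higher in Anti (11.5% of all genes), 7 were lower (12.2%) and 0 were called at 2-fold (1.06%). Many genes of the table were barely expressed, so the shares were also taken over genes whose mean count was 10 or more. There 27 of 44 members (61.4%) passed against Ctrl, beside 57.7% of 15930 genes, 27 (61.4%) against Anti, beside 64.6%, and 15 (34.1%) between Anti and Ctrl, beside 43.3%. The members' shares were thus near those of all expressed genes. The median log2 fold change of these members was 0.04 against Ctrl and 0.02 against Anti, beside -0.02 for all such genes in each. The split depended on scaling. With total counts in place of TMM factors, 19 members were higher and 9 lower against Ctrl, 15 and 13 against Anti, and 17 and 4 between Anti and Ctrl. FPKM values follow the total too, so a ratio of FPKM values in CRLM1-OE and Ctrl exceeds the fitted fold. Both comparisons use the same CRLM1-OE samples and are not independent of each other.

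**Figure D1:**
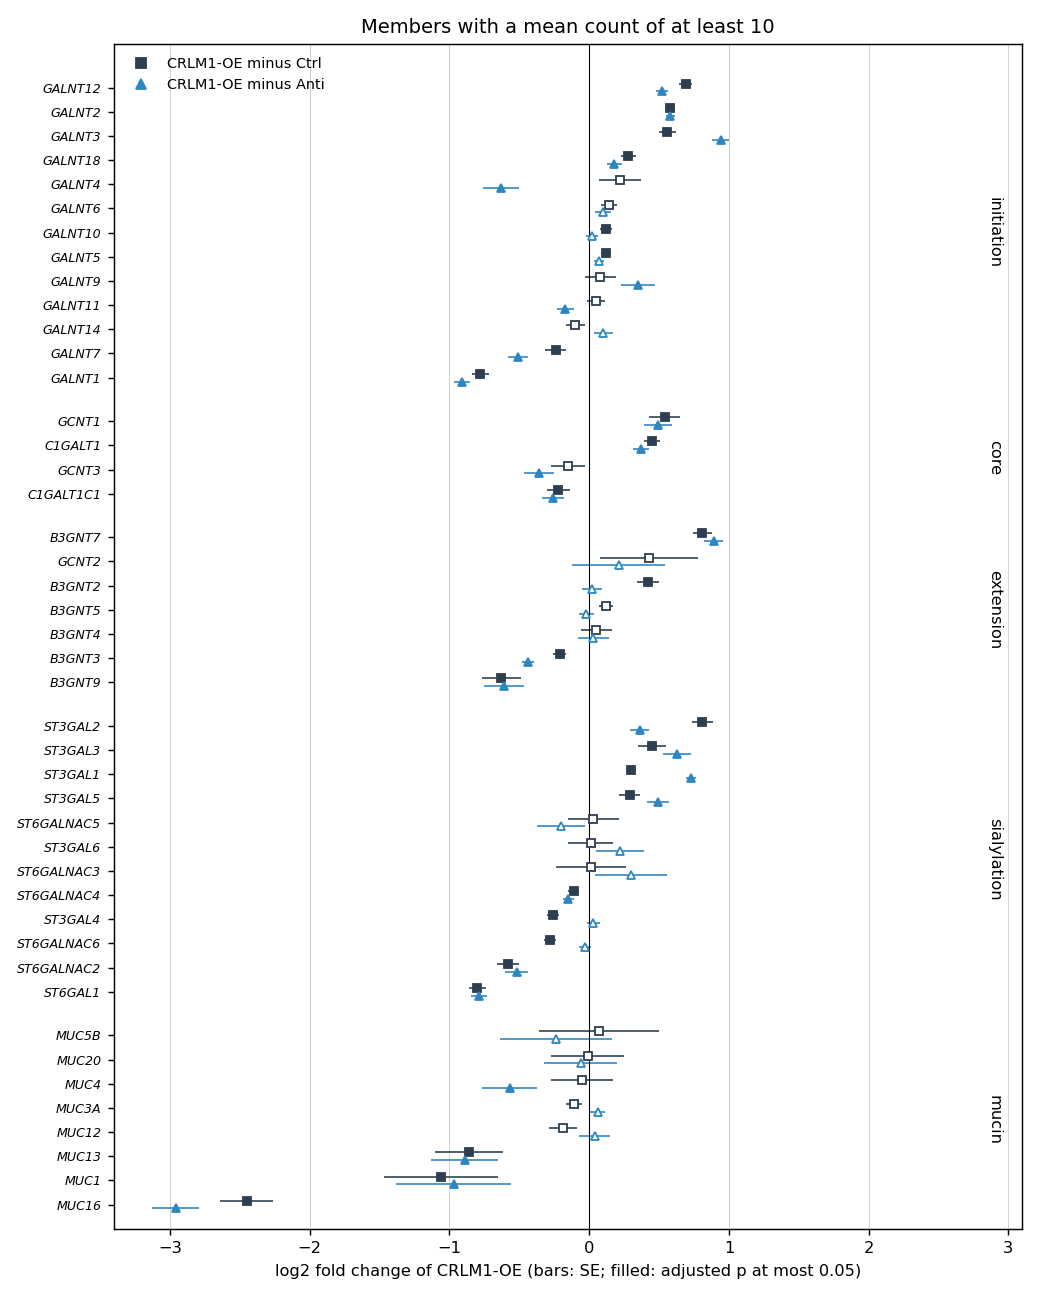
Fitted log2 fold change (x axis) with its SE (bars) of the 44 members whose mean count was 10 or more, by role, for CRLM1-OE minus Ctrl (squares) and CRLM1-OE minus Anti (triangles). Filled symbols passed an adjusted p of 0.05. MUC16 lies farthest from 0, at -2.45 and -2.96, and the enzymes lie between -0.91 and 0.94.

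Among the initiating enzymes, 6 of 17 were higher and 3 lower against Ctrl, and 5 were higher and 4 lower against Anti. Of the 13 whose mean count was 10 or more, 61.5% and 69.2% passed, beside 57.7% and 64.6% of all such genes. GALNT2, GALNT3 and GALNT12 rose and GALNT1 fell in both comparisons. GALNT1 and GALNT2 are broadly expressed members of the family, GALNT3 is known for protecting the hormone FGF23 from cleavage, and GALNT12 is abundant in the colon.

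GALNT1 (chromosome 18, 35581117 to 35711834, forward strand) measured 2.78, 2.98 and 2.86 FPKM in CRLM1-OE, against 4.53, 4.53 and 4.61 in Ctrl and 4.93, 5.48 and 5.30 in Anti. Every CRLM1-OE sample lay below every control sample. In bulk RNA, here and for every gene that follows, fewer cells expressing a gene and less RNA per cell cannot be told apart. The fitted log2 fold change was -0.78 (SE 0.062, edgeR adjusted p = 4.8e-35) against Ctrl and -0.91 (SE 0.060, edgeR adjusted p = 2.7e-51) against Anti, which is 1.72-fold and 1.88-fold lower. Anti and Ctrl did not pass for GALNT1 (log2 fold change 0.11, adjusted p = 0.15).

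GALNT2 (chromosome 1, 230057990 to 230282122, forward strand) measured 17.05, 15.7 and 16.66 FPKM in CRLM1-OE, against 10.33, 10.09 and 10.2 in Ctrl and 10.85, 10.5 and 10.6 in Anti. The control groups lay close together and the CRLM1-OE samples above both. On the log2 scale the fitted change was 0.58 in each comparison (SE 0.036 and 0.034, edgeR adjusted p = 3.2e-55 and 1.5e-63), a 1.49-fold rise against Ctrl and 1.5-fold against Anti. GALNT12 (chromosome 9, 98807670 to 98850081, forward strand) measured 18.14, 16.8 and 17.08 FPKM in CRLM1-OE, against 10.06, 10.18 and 9.51 in Ctrl and 11.01, 11.65 and 12.66 in Anti. The groups did not overlap. In the fit the log2 fold change was 0.69 (SE 0.044, edgeR adjusted p = 6.2e-55) against Ctrl and 0.52 (SE 0.041, edgeR adjusted p = 1.4e-34) against Anti. Anti was higher than Ctrl by a log2 fold change of 0.15 (adjusted p = 0.0064), a call lost without Anti replicate 3 (0.11, adjusted p = 0.17). An lncRNA on the other strand shares 20.9% of the exon bases of GALNT12 in GENCODE version 44.

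GALNT3 (chromosome 2, 165747588 to 165794659, reverse strand) measured 6.01, 5.41 and 5.42 FPKM in CRLM1-OE, against 3.79, 3.40 and 3.37 in Ctrl and 2.84, 2.74 and 2.94 in Anti. All 3 groups were apart, with Anti lowest. edgeR gave a log2 fold change of 0.56 (SE 0.060, edgeR adjusted p = 4.7e-19) against Ctrl and 0.94 (SE 0.063, edgeR adjusted p = 8.6e-49) against Anti. The difference between the controls passed too, at -0.41 for Anti minus Ctrl (SE 0.072, edgeR adjusted p = 1.6e-07), so the size of the GALNT3 change depended on the control. GALNT7, which prefers substrates that already carry sugar, measured 2.01, 2.49 and 2.16 FPKM in CRLM1-OE, against 2.36, 2.50 and 2.36 in Ctrl and 3.06, 3.07 and 3.00 in Anti. Its CRLM1-OE samples overlapped with Ctrl and lay below Anti. This was a log2 fold change of -0.51 against Anti (SE 0.071, edgeR adjusted p = 4.3e-12) and -0.24 against Ctrl (SE 0.075, edgeR adjusted p = 0.0061), and Anti was 0.25 above Ctrl (adjusted p = 0.0026). The call against Ctrl was lost without CRLM1-OE replicate 1 (-0.16, adjusted p = 0.15) or Ctrl replicate 2 (-0.20, adjusted p = 0.064), and with total counts (-0.10, adjusted p = 0.41).

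GALNT18, GALNT5 and GALNT13 changed less or sat near the limit of detection. GALNT18 measured 10.13, 10.23 and 9.73 FPKM in CRLM1-OE, against 7.54, 7.75 and 7.53 in Ctrl and 8.45, 8.53 and 8.83 in Anti, with no overlap. The fitted log2 fold change was 0.28 (SE 0.054, edgeR adjusted p = 9.5e-07) against Ctrl and 0.18 (SE 0.052, edgeR adjusted p = 0.0026) against Anti. GALNT5 measured 9.38, 9.27 and 9.32 FPKM in CRLM1-OE, against 8.38, 7.48 and 7.82 in Ctrl and 8.90, 8.57 and 8.37 in Anti. The log2 fold change of 0.12 (SE 0.037, edgeR adjusted p = 0.0037) against Ctrl passed, though not without Ctrl replicate 2 (0.10, adjusted p = 0.080), and that of 0.07 (SE 0.035, adjusted p = 0.14) against Anti did not. GALNT13, known from neurons, had 6, 7 and 4 counts in CRLM1-OE, against 19, 16 and 8 in Ctrl and 8, 5 and 11 in Anti. The level was 0.02 to 0.07 FPKM. Its log2 fold change against Ctrl was -1.41 (SE 0.49, edgeR adjusted p = 0.012) and against Anti -0.55 (SE 0.58, adjusted p = 0.54). The GALNT13 call was lost without CRLM1-OE replicate 3 (-1.21, adjusted p = 0.059), Ctrl replicate 1 (-1.27, adjusted p = 0.077) or Ctrl replicate 2 (-1.26, adjusted p = 0.070).

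The remaining initiating enzymes passed in 1 comparison or in none. GALNT10 was higher against Ctrl (log2 fold change 0.12), a call lost without CRLM1-OE replicate 1 or Ctrl replicate 3 (0.11 each, adjusted p = 0.069 and 0.063). GALNT11 was lower against Anti (-0.17), where leaving out CRLM1-OE replicate 1 (-0.15, adjusted p = 0.10), CRLM1-OE replicate 3 (-0.17, adjusted p = 0.053) or Anti replicate 3 (-0.13, adjusted p = 0.15) ended the call. GALNT9 was higher against Anti (0.35), but not without Anti replicate 3 (0.21, adjusted p = 0.24). GALNT4 was lower against Anti (-0.63, adjusted p = 3.5e-06) with a log2 fold change of 0.22 (adjusted p = 0.28) against Ctrl, and Anti cells held more of it than Ctrl cells (0.83, adjusted p = 6.7e-09). Its FPKM was 0.83, 0.95 and 0.53 in Anti and 0.41, 0.35 and 0.47 in Ctrl. The POC1B-GALNT4 readthrough gene shares most of the 94.1% of GALNT4 exon bases that lie in other genes, so the counts cannot be tied to GALNT4 alone, and under limma with a pseudocount of 0.1 both GALNT4 calls were lost (adjusted p = 0.19 and 0.090). GALNT6 (0.14 and 0.10) and GALNT14 (-0.10 and 0.10) did not pass in either comparison, though GALNT6 passed against Ctrl once Ctrl replicate 3 was left out (0.19, adjusted p = 0.018). GALNT8, GALNT15 and GALNT16 had at most 11 counts in any sample.

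As a share of the summed FPKM of the 17 GALNT genes, GALNT1 made up 3.50% ± 0.180 (SD, n = 3) in CRLM1-OE, against 7.32% ± 0.189 in Ctrl and 7.69% ± 0.388 in Anti. GALNT2 and GALNT12 made up 20.1% ± 0.587 and 21.1% ± 0.478 in CRLM1-OE, against 16.4% ± 0.236 and 15.9% ± 0.407 in Ctrl. GALNT3 made up 6.84% ± 0.295 in CRLM1-OE, against 5.65% ± 0.294 in Ctrl and 4.17% ± 0.118 in Anti. These shares do not depend on the scaling of a sample. They describe RNA levels per exon length, not enzyme amounts.

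**Figure D2:**
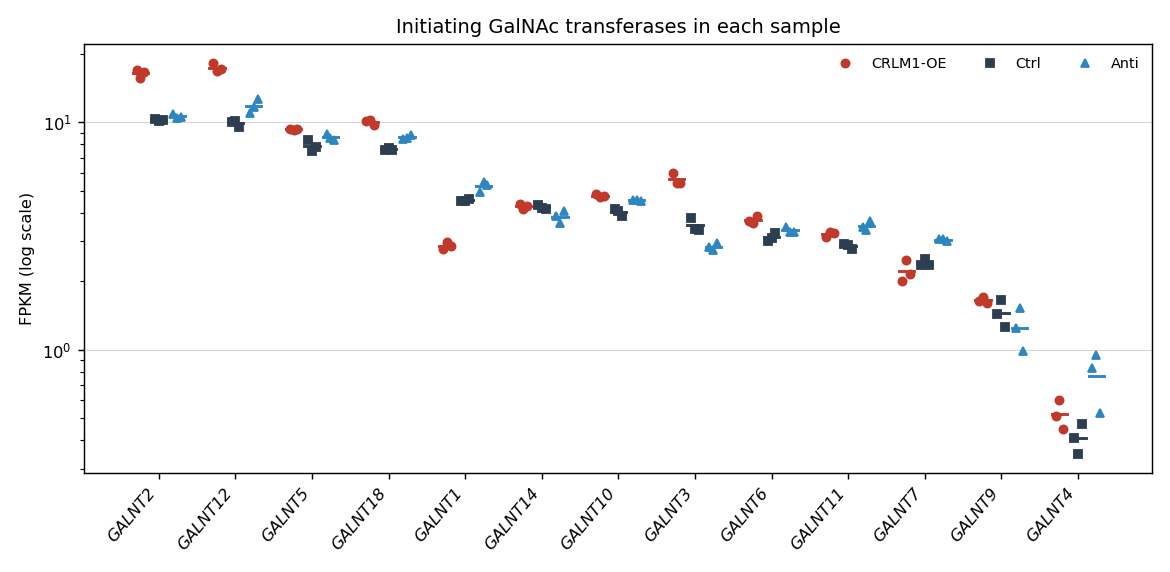
FPKM on a log scale (y axis) of 13 GALNT genes in each sample, ordered by their level in Ctrl. Circles, squares and triangles are the samples of CRLM1-OE, Ctrl and Anti, and lines are group means. The CRLM1-OE samples of GALNT2 and GALNT12 lie above both controls and those of GALNT1 (2.78 to 2.98) lie below both.

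Among the 6 core enzymes, 3 were higher and 1 lower against Ctrl, and 2 were higher and 2 lower against Anti. Only 4 had a mean count of 10 or more, of which 75% and 100% passed, beside 57.7% and 64.6% of all such genes. C1GALT1, the core 1 synthase, rose, and its chaperone C1GALT1C1 was lower. C1GALT1 had a mean of 3.74 FPKM ± 0.0954 (SD, n = 3) in CRLM1-OE, against 2.52 ± 0.0321 in Ctrl and 2.80 ± 0.139 in Anti, and log2 fold changes of 0.45 (adjusted p = 3.2e-14 in edgeR) and 0.37 (adjusted p = 1.6e-10). C1GALT1C1 had log2 fold changes of -0.22 against Ctrl and -0.26 against Anti. The first of these C1GALT1C1 calls was lost without CRLM1-OE replicate 1 (-0.21, adjusted p = 0.066), CRLM1-OE replicate 3 (-0.18, adjusted p = 0.12) or Ctrl replicate 3 (-0.16, adjusted p = 0.19), and with total counts (adjusted p = 0.52).

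GCNT1, the main core 2 branching enzyme outside mucous tissue, measured 1.03, 0.92 and 1.08 FPKM in CRLM1-OE, against 0.60, 0.76 and 0.59 in Ctrl and 0.65, 0.70 and 0.76 in Anti. The CRLM1-OE samples lay above both control groups. On the log2 scale the fitted change was 0.54 (SE 0.11, edgeR adjusted p = 2.5e-06) against Ctrl and 0.49 (SE 0.10, edgeR adjusted p = 1.1e-05) against Anti. GCNT3, the core 2 and core 4 enzyme of mucous tissue, was lower against Anti (-0.36, adjusted p = 0.0058), a call lost without Anti replicate 2 (-0.26, adjusted p = 0.12), and did not pass against Ctrl (-0.15, adjusted p = 0.42). GCNT4, another branching enzyme, had 4, 16 and 10 counts in CRLM1-OE, against 7, 0 and 0 in Ctrl and 1, 8 and 3 in Anti. The call of GCNT4 against Ctrl (2.00, SE 0.68, edgeR adjusted p = 0.0091) rested on these few counts. It was lost without CRLM1-OE replicate 2 (1.41, adjusted p = 0.25), Ctrl replicate 2 (1.49, adjusted p = 0.091) or Ctrl replicate 3 (1.51, adjusted p = 0.082), and without Ctrl replicate 1 no Ctrl count is left. Against Anti the GCNT4 value of 1.26 (adjusted p = 0.080) did not pass, except without CRLM1-OE replicate 1 (1.69, adjusted p = 0.015) or Anti replicate 2 (2.23, adjusted p = 0.013). B3GNT6, the core 3 enzyme of normal colon, had at most 4 counts in any sample.

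Of the 8 extension enzymes, 2 were higher and 2 lower against Ctrl, and 1 was higher and 2 lower against Anti. With a mean count of 10 or more there were 7, of which 57.1% and 42.9% passed, beside 57.7% and 64.6% of all such genes. B3GNT7, known for chains of keratan sulfate, rose most among the extension enzymes, and B3GNT9 and B3GNT3 were lower. B3GNT7 (chromosome 2, 231395710 to 231401164, forward strand) measured 5.35, 5.21 and 5.31 FPKM in CRLM1-OE, against 2.73, 2.62 and 3.04 in Ctrl and 2.84, 2.65 and 2.84 in Anti. The controls overlapped with each other and not with CRLM1-OE. In the fit the log2 fold change was 0.81 (SE 0.066, edgeR adjusted p = 4.7e-33) against Ctrl and 0.89 (SE 0.066, edgeR adjusted p = 7.5e-40) against Anti, or 1.75-fold and 1.85-fold. B3GNT7 made up 17.6% ± 0.581 (SD, n = 3) of the summed FPKM of these 8 genes in CRLM1-OE and 10.5% ± 0.998 in Ctrl.

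B3GNT9 measured 0.77, 0.66 and 0.95 FPKM in CRLM1-OE, against 1.24, 1.14 and 1.03 in Ctrl and 0.99, 1.38 and 1.20 in Anti. The CRLM1-OE samples lay below both controls. edgeR gave a log2 fold change of -0.63 (SE 0.14, edgeR adjusted p = 2.9e-05) against Ctrl and -0.61 (SE 0.14, edgeR adjusted p = 3.3e-05) against Anti. B3GNT9 shares 16.3% of its exon bases with PHAF1 on the other strand. B3GNT3, which extends core 1 and was the most abundant of these enzymes, had log2 fold changes of -0.21 (adjusted p = 3.4e-05) and -0.44 (adjusted p = 3.1e-23), and Anti was 0.21 above Ctrl (adjusted p = 1.2e-05). The call of B3GNT3 against Ctrl was lost with total counts (-0.07, adjusted p = 0.32) and under limma with a pseudocount of 0.1 (adjusted p = 0.37). B3GNT2, the main enzyme of poly-N-acetyllactosamine chains, was higher in CRLM1-OE than in Ctrl (0.42, adjusted p = 8.9e-07). Against Anti its log2 fold change was 0.02 (SE 0.074, adjusted p = 0.86), and Anti was above Ctrl by 0.38 (adjusted p = 3.2e-05). B3GNT5, the glycolipid enzyme (0.12 and -0.02), B3GNT4 (0.05 and 0.03) and GCNT2, the I-branching enzyme (0.43 and 0.21), did not pass. B3GNT5 passed against Ctrl once Ctrl replicate 2 was left out (0.18, adjusted p = 0.016). B3GNT8 had at most 3 counts in any sample.

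**Figure D3:**
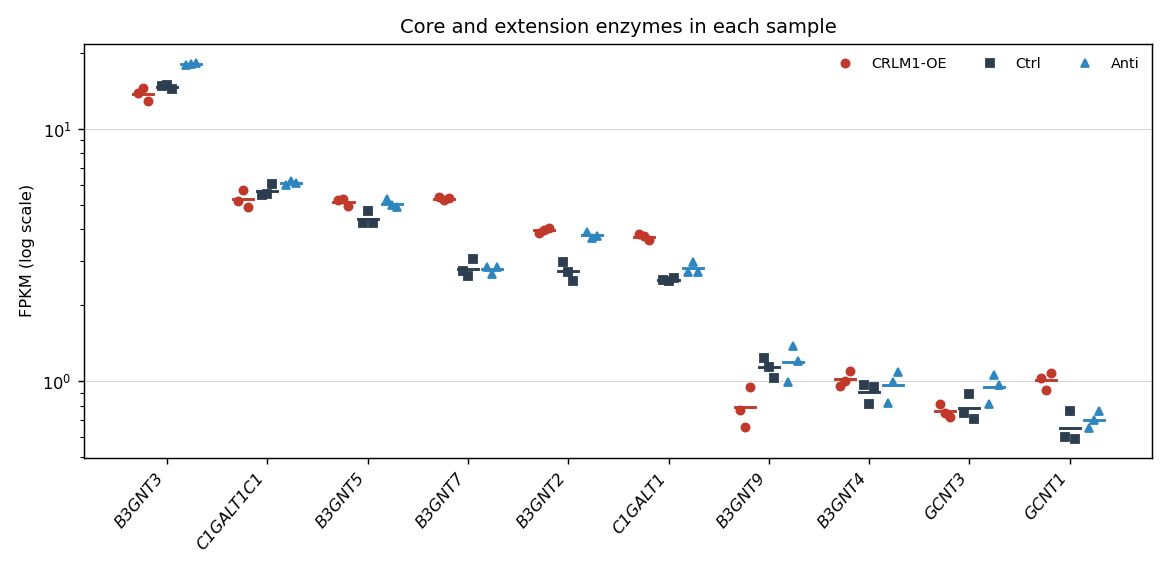
FPKM on a log scale (y axis) of core and extension enzymes in each sample, ordered by their level in Ctrl. Circles, squares and triangles are the samples of CRLM1-OE, Ctrl and Anti, and lines are group means. B3GNT7, C1GALT1 and GCNT1 stand above both controls in CRLM1-OE, and B3GNT9 stands below both.

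Among the 13 sialyltransferases, 4 were higher and 5 lower against Ctrl, and against Anti 4 were higher and 3 lower. Of the 12 whose mean count was 10 or more, 75% and 58.3% passed, beside 57.7% and 64.6% of all such genes. ST3GAL1, ST3GAL2, ST3GAL3 and ST3GAL5 were higher in both comparisons, while ST6GAL1, ST6GALNAC2 and ST6GALNAC4 were lower in both. In ST6GALNAC4 the sign against Ctrl turned with total counts (0.03, adjusted p = 0.63). Their summed FPKM was 76.9 ± 0.376 (SD, n = 3) in CRLM1-OE, against 77.9 ± 1.11 in Ctrl and 75.1 ± 1.34 in Anti.

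ST3GAL1, which caps core 1, measured 8.94, 9.15 and 8.87 FPKM in CRLM1-OE, against 6.92, 6.68 and 6.63 in Ctrl and 5.21, 4.90 and 5.61 in Anti. All 3 groups were apart, with Anti lowest as for GALNT3. This was a log2 fold change of 0.30 (SE 0.037, edgeR adjusted p = 9e-15) against Ctrl and 0.73 (SE 0.037, edgeR adjusted p = 2.9e-83) against Anti, and the controls differed by -0.46 (Anti minus Ctrl, SE 0.041, edgeR adjusted p = 2e-27). ST3GAL2 (chromosome 16, 70375977 to 70439237, reverse strand), which acts on core 1 and on glycolipids, measured 1.70, 1.64 and 1.64 FPKM in CRLM1-OE, against 0.89, 0.82 and 0.91 in Ctrl and 1.21, 1.24 and 1.32 in Anti. Here Anti lay between the other groups. The fitted log2 fold change was 0.81 (SE 0.075, edgeR adjusted p = 2.2e-26) against Ctrl, 0.36 (SE 0.069, edgeR adjusted p = 1.1e-06) against Anti and 0.44 (SE 0.081, edgeR adjusted p = 7.9e-07) for Anti minus Ctrl.

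ST3GAL3, which caps chains of N-acetyllactosamine, measured 2.79, 2.31 and 2.71 FPKM in CRLM1-OE, against 1.87, 1.69 and 1.74 in Ctrl and 1.67, 1.54 and 1.71 in Anti. The CRLM1-OE samples lay above the controls, which overlapped with each other. On the log2 scale the fitted change was 0.45 (SE 0.10, edgeR adjusted p = 6e-05) against Ctrl and 0.63 (SE 0.10, edgeR adjusted p = 1e-08) against Anti. ST3GAL5, the synthase of the ganglioside GM3 and so a glycolipid enzyme, had log2 fold changes of 0.29 (adjusted p = 0.00083) and 0.49 (adjusted p = 3e-09). ST3GAL4 was lower against Ctrl (-0.26, adjusted p = 1.5e-08) and not against Anti (0.03, adjusted p = 0.62), with Anti lower than Ctrl (-0.31, adjusted p = 1.3e-11). ST3GAL6 did not pass (0.01 and 0.22).

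ST6GAL1, which adds sialic acid to the galactose of N-linked glycans, was the sialyltransferase that fell most. ST6GAL1 (chromosome 3, 186930325 to 187078553, forward strand) measured 2.97, 3.05 and 2.9 FPKM in CRLM1-OE, against 4.76, 4.79 and 4.78 in Ctrl and 4.84, 4.83 and 5.24 in Anti. The Anti samples lay just above the Ctrl samples, and every CRLM1-OE sample lay below both. In the fit the log2 fold change was -0.80 (SE 0.059, edgeR adjusted p = 1.1e-39) against Ctrl and -0.79 (SE 0.058, edgeR adjusted p = 6.3e-40) against Anti, or 1.74-fold and 1.73-fold lower. Anti and Ctrl did not pass (-0.03, adjusted p = 0.70).

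ST6GALNAC2, which adds sialic acid to the first sugar of the O-glycan, measured 3.68, 3.81 and 3.90 FPKM in CRLM1-OE, against 4.97, 5.43 and 5.38 in Ctrl and 4.96, 5.25 and 5.68 in Anti. The controls overlapped and CRLM1-OE lay below them. edgeR gave a log2 fold change of -0.58 (SE 0.079, edgeR adjusted p = 1.7e-12) against Ctrl and -0.52 (SE 0.079, edgeR adjusted p = 1.6e-10) against Anti. In GENCODE version 44, 59.1% of ST6GALNAC2 exon bases and 47.0% of those of ST6GALNAC6 lie in other annotated genes. ST6GALNAC4, the most abundant member, had log2 fold changes of -0.11 and -0.15. Its call against Ctrl was lost without CRLM1-OE replicate 1 (-0.09, adjusted p = 0.14), Ctrl replicate 2 (-0.11, adjusted p = 0.059) or Ctrl replicate 3 (-0.07, adjusted p = 0.25). ST6GALNAC6 was lower against Ctrl (-0.28, adjusted p = 4.8e-10) and not against Anti (-0.03, adjusted p = 0.58). ST6GALNAC3 (0.01 and 0.30) and ST6GALNAC5 (0.03 and -0.20) did not pass, and ST6GALNAC1, the sialyl-Tn synthase, had at most 2 counts in any sample.

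**Figure D4:**
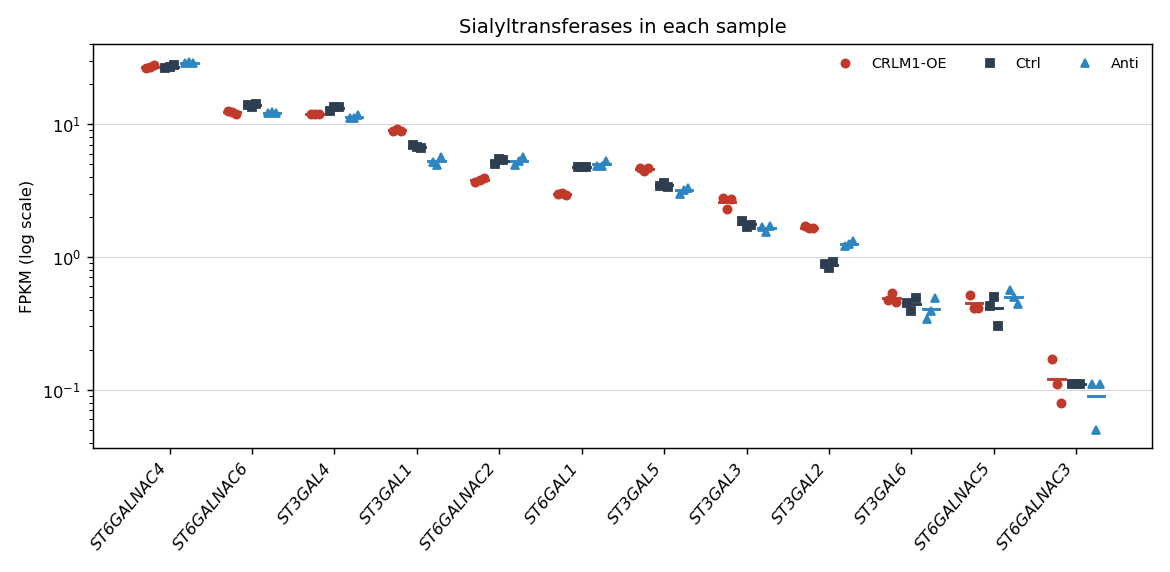
FPKM on a log scale (y axis) of 12 sialyltransferases in each sample, ordered by their level in Ctrl. Circles, squares and triangles are the samples of CRLM1-OE, Ctrl and Anti, and lines are group means. ST3GAL1, ST3GAL2, ST3GAL3 and ST3GAL5 stand above both controls in CRLM1-OE, and ST6GAL1 (2.9 to 3.05) and ST6GALNAC2 stand below both.

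No mucin was higher in CRLM1-OE. Of 14 mucins, 3 were lower against Ctrl (MUC1, MUC13 and MUC16), and of 13 tested, 4 were lower against Anti (the same 3 and MUC4). Among the 8 mucins whose mean count was 10 or more, 37.5% and 50% passed, below the 57.7% and 64.6% of all such genes. The lower ones are membrane-bound mucins, which does not set them apart, since the gel-forming members had few counts. The gel-forming mucins MUC5AC and MUC6 had at most 1 count in any sample and MUC5B had 5 to 19. MUC2, the main secreted mucin of the colon, and MUC19 are listed under another gene type and so are not members.

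MUC16, the protein that carries the CA-125 epitope (chromosome 19, 8848844 to 9010390, reverse strand), had 34, 21 and 25 counts in CRLM1-OE, against 189, 101 and 119 in Ctrl and 215, 188 and 195 in Anti. As CPM (counts scaled to the library total) this was 0.811, 0.631 and 0.660, then 4.25, 2.78 and 3.41, then 5.36, 5.01 and 5.56. All groups were apart. This was a log2 fold change of -2.45 (SE 0.19, edgeR adjusted p = 6.9e-37) against Ctrl and -2.96 (SE 0.17, edgeR adjusted p = 2.9e-66) against Anti, or 5.45-fold and 7.79-fold lower. MUC16 was also higher in Anti than in Ctrl by 0.49 (SE 0.12, edgeR adjusted p = 0.00037). Its level was low in every group, at 0.09 FPKM or less in each Ctrl sample, where the 2 decimals of the deposited FPKM leave little resolution.

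MUC13, a membrane mucin of the intestine, had 33, 38 and 16 counts in CRLM1-OE, against 57, 53 and 38 in Ctrl and 52, 47 and 56 in Anti. Replicate 3 of CRLM1-OE was the lowest, and the CRLM1-OE range overlapped with Ctrl in FPKM (0.24, 0.35 and 0.13 against 0.40, 0.45 and 0.33). The fitted log2 fold change was -0.86 (SE 0.24, edgeR adjusted p = 0.0012) against Ctrl and -0.89 (SE 0.24, edgeR adjusted p = 0.00056) against Anti. Without CRLM1-OE replicate 3 these values were -0.56 (adjusted p = 0.070) and -0.58 (adjusted p = 0.047).

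MUC1, the epithelial membrane mucin, had 10, 8 and 9 counts in CRLM1-OE, against 13, 16 and 23 in Ctrl and 14, 21 and 16 in Anti. The counts of CRLM1-OE lay below those of the controls, at very low depth. On the log2 scale the fitted change was -1.06 (SE 0.41, edgeR adjusted p = 0.030) against Ctrl and -0.97 (SE 0.41, edgeR adjusted p = 0.048) against Anti. The call against Ctrl was lost in 5 of the 6 fits that left out 1 library, all but that without Ctrl replicate 1, with values from -1.07 to -0.72 and adjusted p up to 0.31. Against Anti it was likewise lost in 5 of 6, all but that without Anti replicate 1, with values from -0.98 to -0.78 and adjusted p up to 0.22.

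MUC4 was lower against Anti (-0.57, adjusted p = 0.014), a call lost without CRLM1-OE replicate 3 (-0.48, adjusted p = 0.069) or Anti replicate 1 (-0.48, adjusted p = 0.087), and it measured -0.05 (adjusted p = 0.88) against Ctrl. MUC3A, by far the most abundant mucin, measured 1.95, 1.90 and 1.89 FPKM in CRLM1-OE, against 2.00, 1.78 and 1.95 in Ctrl and 1.64, 1.81 and 1.89 in Anti, and did not pass in either comparison (-0.11 and 0.06). MUC3A has a near-identical neighbouring copy, so its counts are uncertain. MUC12 (-0.19 and 0.04), MUC20 (-0.01 and -0.06) and MUC5B (0.07 and -0.24) did not pass. MUC12 passed against Ctrl once Ctrl replicate 3 was left out (-0.29, adjusted p = 0.036). MUC15, MUC17, MUC21 and MUC22 had at most 3 counts in any sample.

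**Figure D5:**
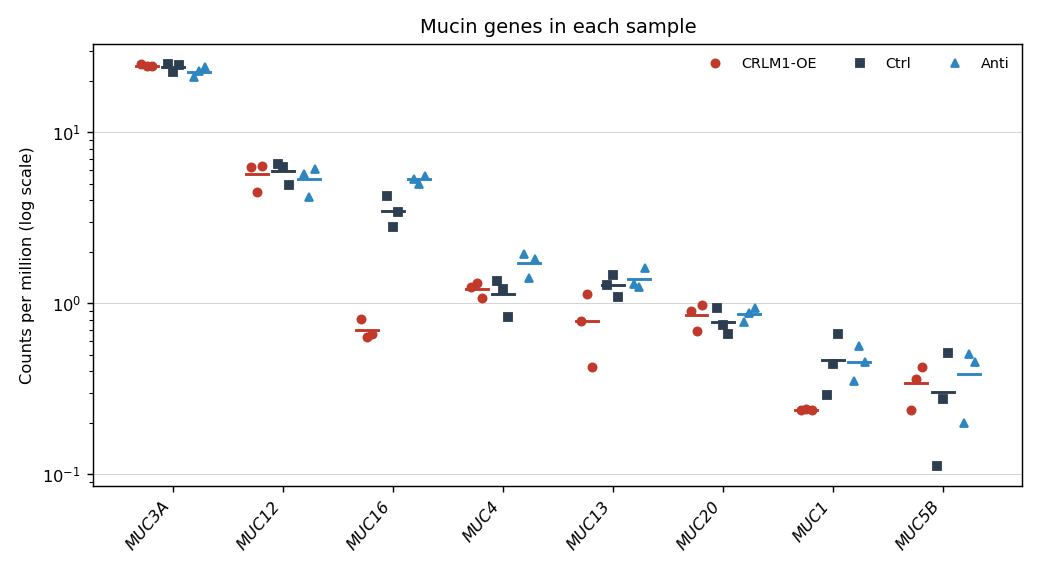
CPM (counts scaled to the library total) on a log scale (y axis) of the 8 mucins whose mean count was 10 or more, in each sample. Circles, squares and triangles are the samples of CRLM1-OE, Ctrl and Anti, and lines are group means. MUC16 lies between 0.631 and 0.811 in CRLM1-OE and between 2.78 and 5.56 in the controls, while MUC3A overlaps between CRLM1-OE and Ctrl.

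The controls differed from each other in some members. Of the 8 members higher and 7 lower in Anti than in Ctrl, GALNT3, ST3GAL1, ST3GAL4, ST3GAL5, ST6GALNAC6, GALNT14 and MUC3A were lower, and B3GNT2, B3GNT3, GALNT4, GALNT7, GALNT11, GALNT12, MUC16 and ST3GAL2 were higher. The calls of GALNT14 (-0.23, lost without Anti replicate 2 at -0.19, adjusted p = 0.070), MUC3A (-0.19, lost without Ctrl replicate 1 at -0.16, adjusted p = 0.056, or Anti replicate 1 at -0.14, adjusted p = 0.11), GALNT11 (0.20, lost without Anti replicate 3 at 0.16, adjusted p = 0.10) and ST3GAL5 (-0.22, lost in 5 of 6 such fits with adjusted p up to 0.20) depended on single libraries, as did that of GALNT12 given above.

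Other genes of the pathway, from a list of 50 in the table, were read from the same fit. Against Ctrl, 8 of 49 were higher (15% of all genes) and 16 lower (16.8%), and against Anti 12 were higher (17.1%) and 17 lower (18.5%). Of the 41 whose mean count was 10 or more, 58.5% passed against Ctrl and 70.7% against Anti, beside 57.7% and 64.6% of all such genes. By role, 14 genes supply the sugar nucleotides, of which 0 were higher and 7 lower against Ctrl, and 3 were higher and 4 lower against Anti. All 14 had a mean count of 10 or more, and the 50% that passed in each comparison lay below the shares of all such genes. Among those lower against Ctrl were GNPNAT1 (-0.28), UAP1 (-0.21) and PGM3 (-0.19), which make UDP-N-acetylglucosamine, and NANS and NANP (-0.20 each), which make sialic acid. Other genes of these routes did not pass against Ctrl, namely GFPT1 (-0.05, edgeR adjusted p = 0.28), GFPT2 (-0.03, 0.75), GNE (0.13, 0.13) and CMAS (0.01, 0.91). Of these, GFPT2 (0.24) and CMAS (0.13) were higher against Anti, GFPT1 was lower (-0.36) and GNE did not pass (0.06). Against Anti, GNPNAT1 (-0.27) and NANP (-0.21) were lower, while UAP1 (-0.02, adjusted p = 0.54), PGM3 (-0.04, adjusted p = 0.53) and NANS (-0.01, adjusted p = 0.77) did not pass. Anti was itself lower than Ctrl in UAP1 (-0.20), PGM3 (-0.17) and NANS (-0.21). With total counts, 19 pathway genes were higher and 7 lower against Ctrl.

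Genes of the list past the same rule of size as the members follow. SLC35C1, which carries GDP-fucose into the Golgi apparatus, fell from 6.0 FPKM ± 0.306 (SD, n = 3) in Ctrl and 7.28 ± 0.210 in Anti to 4.42 ± 0.368 in CRLM1-OE (log2 fold changes -0.56 and -0.77). The fucosyltransferases FUT2, the secretor enzyme (-0.48 and -0.66), and FUT3, the Lewis enzyme (-0.33 and -0.65), were lower too. FUT3 against Ctrl lost its call without CRLM1-OE replicate 1 (-0.28, adjusted p = 0.073), CRLM1-OE replicate 2 (-0.29, adjusted p = 0.056) or Ctrl replicate 1 (-0.28, adjusted p = 0.075). TMEM165, needed for manganese balance in the Golgi apparatus, fell from 9.82 FPKM ± 0.420 in Ctrl and 12.5 ± 0.248 in Anti to 7.21 ± 0.562 (-0.56 and -0.85). CHST4, which sulfates mucin chains, had 23 to 35 counts in CRLM1-OE, 50 to 60 in Ctrl and 42 to 78 in Anti (-1.03 and -1.22, edgeR adjusted p = 4.7e-05 and 2.4e-07). CD164, a sialomucin, was lower (-0.45 and -0.68). Between the controls, Anti was above Ctrl in SLC35C1 (0.18), TMEM165 (0.26), CD164 (0.2) and FUT3 (0.3), so the size of these falls depended on the control. That FUT3 call was lost without Ctrl replicate 3 or Anti replicate 2. FUT2 and CHST4 did not pass between the controls (0.16 each).

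HEG1, OVGP1, B4GALNT3 and GAL3ST4 rose. HEG1, a mucin-like membrane protein of vessels, measured 0.61, 0.73 and 0.72 FPKM in CRLM1-OE, against 0.25, 0.23 and 0.19 in Ctrl and 0.28, 0.29 and 0.24 in Anti. In the fit the log2 fold change was 1.51 (SE 0.12, edgeR adjusted p = 1.2e-32) and 1.31 (SE 0.12, edgeR adjusted p = 2.5e-27). The rise of HEG1, to below 1 FPKM, was 2.85-fold against Ctrl. OVGP1, the oviduct glycoprotein (0.64 and 1.37), B4GALNT3, which makes LacdiNAc ends (0.65 and 0.45), and GAL3ST4, which sulfates the galactose of core 1 (0.82 and 1.32), were also higher in both comparisons. For OVGP1 the controls themselves differed by -0.76 (Anti minus Ctrl, edgeR adjusted p = 1.7e-05), more than CRLM1-OE and Ctrl did. GAL3ST4 had few counts, 42 to 46 in CRLM1-OE, 15 to 35 in Ctrl and 11 to 20 in Anti. Of the 5 relatives listed under other symbols, B3GNTL1 did not pass in either comparison (-0.02 and 0.16). WBSCR17, GALNTL6, C1GALT1C1L and GCNT7 had at most 6 counts in any sample and did not pass where tested. GALNTL6 was not tested against Anti.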

How the data were processed

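RNA of HCT116 cells was sequenced in 3 groups of 3 biological replicates (CRLM1-OE, Ctrl and Anti), grouped by their labels. After trimming (FASTX-Toolkit) and removal of reads below 16 nt, the authors mapped to GRCh38 with TopHat2, allowing 4 mismatches and using Gencode version 23, and deposited raw counts of uniquely mapped reads per gene. The authors also deposited FPKM values (fragments per exon length and depth, 2 decimals). The criterion for listing a gene, the use of strand and the counting of read pairs are not given in the sources used here, so reads on exons shared between genes could fall to either gene.

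The main test was the quasi-likelihood F-test (glmQLFit, then glmQLFTest, without covariates) of edgeR 4.0.16 with TMM scaling, run in R 4.3.3 on the 6 samples of each comparison, for every gene with at least 1 count in them. The p-values were adjusted by Benjamini-Hochberg over all genes tested. The SE was derived from the F statistic and the fitted coefficient before shrinkage, while the printed log2 fold change is slightly shrunk by edgeR. For genes of few counts the SE is therefore approximate. Total counts ranged from 33302292 to 44514692, and 3 counts, the floor used, correspond to between 0.0674 and 0.0901 CPM, which covers counting error only.

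The 58 members and the lists were chosen with earlier results of these data known. Per-sample values are given for members with an adjusted p of at most 0.05 in the same direction in both comparisons with CRLM1-OE and an absolute log2 fold change of at least 0.5 in at least 1 of them, and for GALNT5, GALNT13 and GALNT18, which the paper names. GALNT1, GALNT2 and GALNT3 met the rule and are named in the paper too. From RNA-seq and qRT-PCR, it reports GALNT1 as lowered and GALNT2 and GALNT3 as raised by CRLM1. That RNA-seq is the experiment used here, and the paper's methods state that qRT-PCR used the same RNA, so neither is independent of these values. For GALNT5, GALNT13 and GALNT18 the paper reports low or negligible change, while its discussion counts 3 GALNT members among genes with increased expression. Here GALNT13 was lower against Ctrl (-1.41), at few counts. Pathway genes are named by the same rule. Sugar nucleotide genes and markers without such values were chosen after their values were seen.

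The alternatives were RLE factors, total counts, filterByExpr, DESeq2 1.42.0 (Wald), edgeR's exact test, limma 3.58.1 on log2(FPKM + 0.1) and log2(FPKM + 1), 1 joint fit over the 9 samples, a block for replicate number, and each library left out. In a simulation of CRLM1-OE against Ctrl over 29846 genes, changes were planted only in genes whose mean count was 50 or more. The quasi-likelihood test recovered 100% of the planted 2-fold rises and 94% of the 1.5-fold rises. Few genes were changed in the simulation, unlike in the data, so it did not test how calls depend on scaling. Recovery at lower counts, such as those of MUC1, MUC13, GALNT13 and GCNT4, was not tested. Promoter sequences are those of RefSeq on GRCh38.p14, and positions are from GENCODE version 44. Figures were drawn with matplotlib 3.10.9.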

Additional observations from a re-analysis of the deposited data

How the results depend on the processing

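Of the 36 values of the 19 fully described members that passed the threshold, 27 passed under every alternative run. Among 568 recalculations, 0 reversed a direction, 40 lost the call and 3, all of GALNT5 against Anti, gained it. Of these 19 members, 16 were chosen because they passed in the same direction in both comparisons. This choice itself favours stable directions, so the counts do not describe the members outside it. There, ST6GALNAC4 against Ctrl turned from -0.11 to 0.03 with total counts. Beyond the calls named beside their genes above, B3GNT9 lost its call against Anti under limma at either pseudocount and against Ctrl at 0.1 (adjusted p = 0.065) but not at 1 (0.043), and GALNT7, MUC1, MUC13 and GALNT13 lost 1 or more under limma, DESeq2 or total counts. The cause was not tested. Depth limits genes of few counts, such as GALNT13 (4 to 19), GCNT4 (0 to 16) and MUC1 (8 to 23).

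At the 2-fold rule against Ctrl, the count of 4 members became 2 with filterByExpr, 1 with DESeq2 and 0 with limma at either pseudocount. Against Anti the count of 1 became 0 with limma at either pseudocount and 2 in the fit of all 9 samples, which added MUC17. Lower members against Ctrl numbered 9 in place of 14 with total counts and with DESeq2, and 5 and 7 with limma at pseudocounts of 0.1 and 1. Lower members against Anti numbered 7 and 8 in place of 15 with limma at the same pseudocounts. Between Anti and Ctrl, total counts gave 17 higher and 4 lower members in place of 8 and 7, limma gave 5 higher and 2 lower at a pseudocount of 0.1, and 4 lower at 1. Pathway genes against Ctrl were 19 higher and 7 lower with total counts in place of 8 and 16, 14 higher and 8 lower with limma at a pseudocount of 1, and 5 lower at 0.1.

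With 1 library left out, 2-fold members ranged from 1 to 3 against Ctrl, from 1 to 2 against Anti and from 0 to 1 between Anti and Ctrl. No pairing by replicate number was seen. Deviations of same-numbered samples from their group means correlated at between -0.075 and 0.078, and not every sample correlated best with its own number. The labels do not say how the samples were handled, and with 3 replicates per group this check cannot exclude shared handling. With the replicate number as a block, 15 members were higher and 14 lower against Ctrl, 12 were higher and 14 lower against Anti, and 9 were higher and 8 lower in Anti against Ctrl, and MUC1 against Anti had an adjusted p of 0.065 in that fit. Total counts in place of TMM moved the median log2 fold change of genes whose mean count was 50 or more from -0.039 to 0.102 against Ctrl, with 6649 genes higher and 2951 lower in place of 4462 and 5016, and from -0.003 to 0.101 between Anti and Ctrl.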
